A study of Rattus norvegicus with 12 samples.

Results

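The change in lung gene expression between postnatal day 4 and postnatal day 10 was measured in growth-restricted rat pups. Per the labels, the animals were Sprague-Dawley rats, the tissue was whole lung, and growth before birth had been restricted by a low protein diet (intrauterine growth restriction, IUGR). The IUGR lungs were represented by 4 of the 12 arrays of the series, chosen by their titles: 2 arrays at day 10 and 2 arrays at day 4. The control lungs, 2 arrays at day 10 and 2 at day 4, were used for the shared estimate of spread and for the comparison of both changes. Each array held RNA pooled from 2 or 3 pups, per the design text. The labels do not give the pups or litters behind a pool, so the p-values below measure the spread between these pools. The control diet, the sex of the pups and the time of day are not given in the sources used here.

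Rat alveoli form after birth, when ridges called secondary septa grow out from the walls of the saccules. Myofibroblasts at the tips of the septa deposit elastin, capillaries grow with the septa, and the alveolar epithelium matures into flat type 1 cells for gas exchange and type 2 cells that secrete surfactant. Resident macrophages settle in the airspaces in the days after birth.

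The deposited values were linear intensities of 26208 features on one-colour arrays, and all values below are log2 of them. A difference is the mean of the 2 day 10 pools minus the mean of the 2 day 4 pools, in log2 units, followed by its standard error (SE), and a positive value means higher at day 10. A feature was called where limma's adjusted p, Benjamini-Hochberg over all features, was under 0.05. "Rose" and "fell" are used only of called features. Levels of different features are not compared, since each has its own probes. In whole lung, fewer cells of a type and less RNA per cell cannot be told apart. Probe sequences were not used here, so values of genes with near-identical relatives (class I RT1 genes, defensins, globins, olfactory receptors, and ribosomal protein genes with their processed copies) may mix family members.

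The 8 arrays had median intensities of 411 to 418, and each correlated with the mean of the other 7 at 0.986 to 0.996 across features. The lowest of these values belonged to IUGR day 4 replicate 2. Both IUGR replicate 2 pools stood apart in genes of heart muscle and brown fat. The summed intensity of 24 heart muscle genes was 25720 in replicate 1 and 56680 in replicate 2 of the IUGR day 10 pools, against 40399 and 105510 in the IUGR day 4 pools. It was 19677 and 19409 in the control day 10 pools, against 50692 and 42684 in the control day 4 pools. For 21 genes of brown fat and adipocytes the sums were 16978 and 42793 in the IUGR day 10 pools, against 12541 and 32319 in the IUGR day 4 pools. The control pools held 10482 and 11424 at day 10 against 13350 and 13428 at day 4. At each age the IUGR replicate 2 pool was thus above the IUGR replicate 1 pool in both lists. Counts without both IUGR replicate 2 pools are given for most lists, beside the list or together after the brown fat genes. That fit keeps 1 IUGR pool at each age and takes the spread from the controls. A list without such a count is not thereby unchanged. No feature reads 0 on these arrays, whose lowest intensities were 113 to 122.

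**Figure D1:**
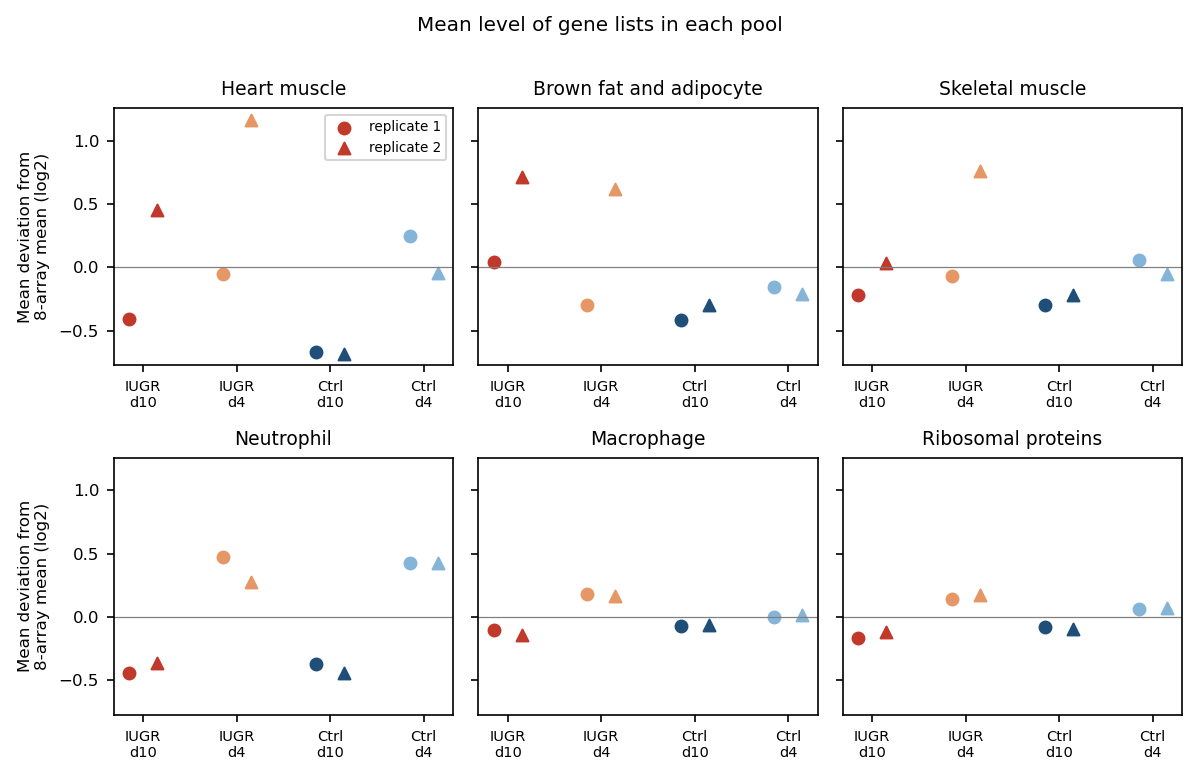
Mean deviation of 6 gene lists from their 8-array mean (log2 units, vertical axis) in each pool, with circles for replicate 1 and triangles for replicate 2 and the groups along the horizontal axis. The IUGR replicate 2 pools lie above their replicate 1 partners in heart muscle and brown fat genes, whereas both IUGR day 10 pools lie below both IUGR day 4 pools in neutrophil, macrophage and ribosomal protein genes.

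Between both ages, 3405 of 26208 features were called in IUGR lungs (13.0% of features), 1791 of them higher at day 10 (6.83%) and 1614 lower (6.16%). Among the 9621 genes that could be named, counted with 1 feature each, the balance was the reverse: 336 rose (3.49%) and 758 fell (7.88%). The rises lay mostly in features without a symbol, of which 1452 rose and 849 fell. Most changes were small. The median size of a called difference was 0.53, while 287 features rose and 52 fell by more than 2-fold. Over all features the median difference was -0.03, and over the named genes it was -0.06. Without both IUGR replicate 2 pools, 2920 features were called (11.1%), 1845 of them shared with the 3405. When each of the 8 arrays was left out in turn, 427 of the 3405 features were called every time. The array that mattered most was IUGR day 10 replicate 1, without which 504 features were called.

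Of 884 measured genes in 47 lists, 39 rose and 140 fell. Counts of called members below are to be read against the 3.49% of named genes that rose and the 7.88% that fell. Counts of members merely lower or higher, called or not, are to be read against all 9621 named genes. Of these, 5944 were lower and 3677 higher at day 10. The plot of called members by list shows that neutrophil, ribosomal protein and macrophage genes had the greatest shares of falling members. Elastic fibre, airway cartilage and endothelial genes were among the lists with the greatest shares of rising members.

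**Figure D2:**
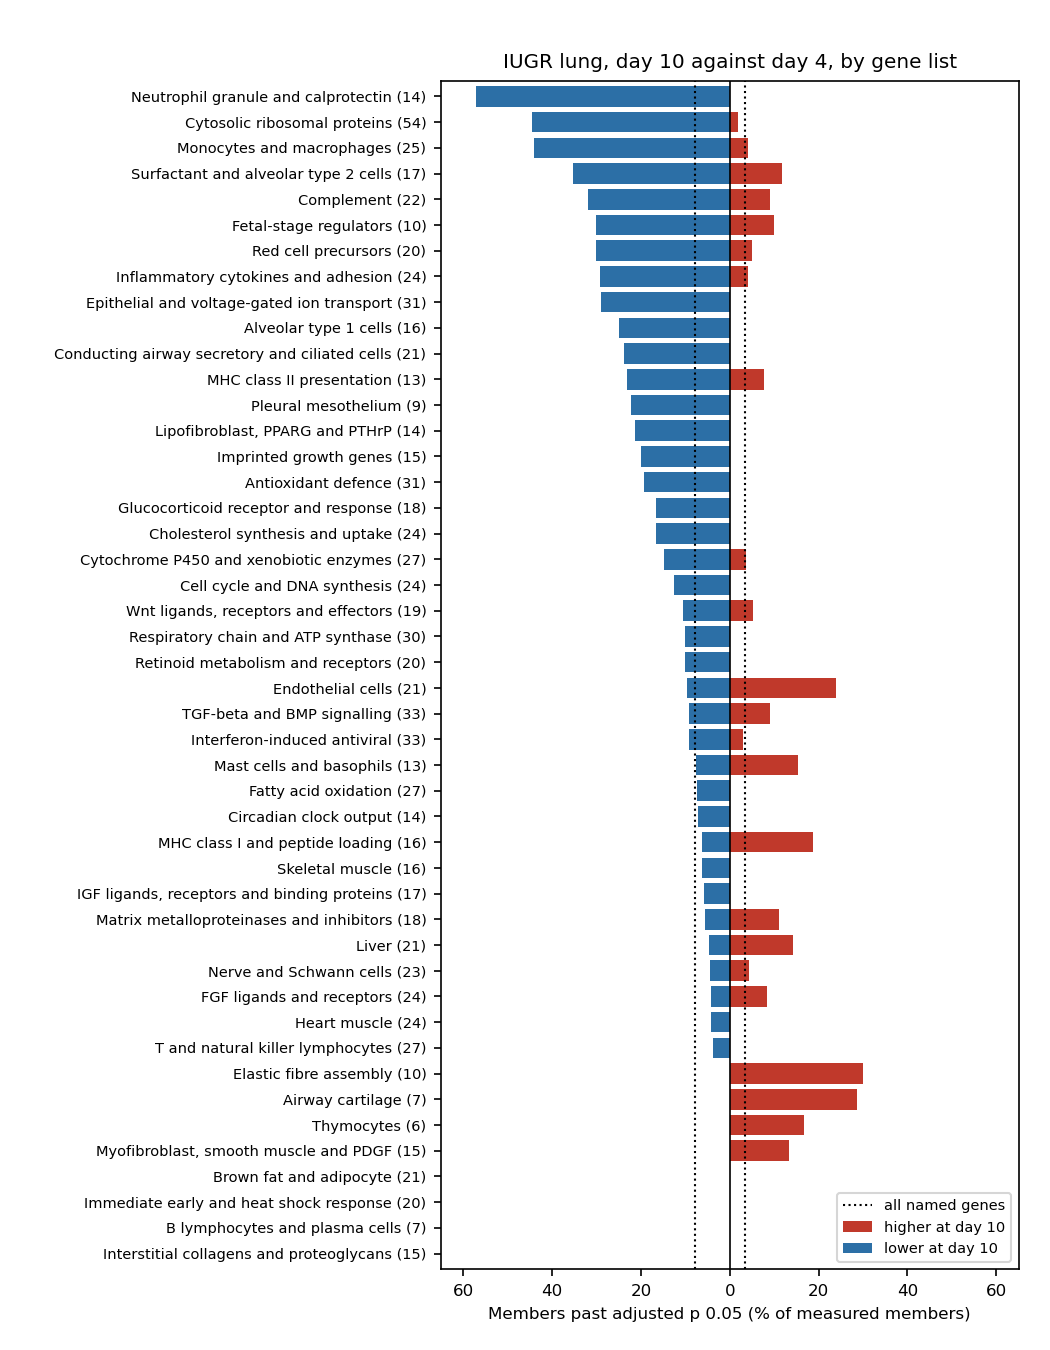
Share of the measured members of each gene list (number in brackets) past an adjusted p of 0.05, higher at day 10 to the right (red) and lower at day 10 to the left (blue), in IUGR lungs. Dotted lines mark the shares over all 9621 named genes, 3.49% higher and 7.88% lower. Of 14 neutrophil genes 8 fell and none rose, and of 10 elastic fibre genes 3 rose and none fell. The basement membrane list, with 4 measured members, is not drawn.

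The 15 greatest falls among named genes ranged over unlike functions. Chia, the acidic chitinase, had the greatest: 8.75 and 9.82 in the IUGR day 10 pools against 11.47 and 12.50 in the IUGR day 4 pools, a difference of -2.71 ± 0.40 (SE, n = 2 pools each; adjusted p = 0.00849), or 6.52-fold. The replicate 2 pool was about 1 log2 unit above the replicate 1 pool at both ages, and the ages did not overlap. Rnase3, a ribonuclease of eosinophil granules, had 10.96 and 10.08 at day 10 against 12.39 and 12.37 at day 4 (-1.86 ± 0.32, adjusted p = 0.0123). Ces1e, a carboxylesterase, fell by 1.78 (SE 0.19), and Csta3, a cysteine protease inhibitor of the stefin family, fell by 1.56 (SE 0.17). Ka11, a type I keratin, fell by 1.41 (SE 0.27).

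Of 14 measured genes of neutrophil granules and calprotectin (23 listed), 8 fell and none rose, 13 were lower at day 10, and the median difference was -0.56, against -0.06 over all named genes. Np4, an antimicrobial defensin of neutrophil granules, had 7.65 and 7.52 in the IUGR day 10 pools against 9.64 and 9.40 in the IUGR day 4 pools, or 3.82-fold lower (-1.93 ± 0.11, adjusted p = 0.00123). The day 10 pools were nearly equal and lay far below both day 4 pools. RatNP-3b, another neutrophil defensin, had 7.71 and 7.81 at day 10 against 9.83 and 9.46 at day 4 (-1.89 ± 0.13, adjusted p = 0.00157). Defa5, also of the defensin family, fell by 1.19 (SE 0.20).

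S100a8 and S100a9, which together form the calcium-binding alarmin calprotectin, also separated the ages. S100a9 had 10.99 and 11.13 at day 10 against 12.81 and 12.25 at day 4 (-1.47 ± 0.17, adjusted p = 0.00421), and S100a8 had 11.01 and 11.24 against 12.41 and 12.19 (-1.17 ± 0.13, adjusted p = 0.0039). Lcn2, a siderophore-binding granule protein, fell by 1.03 (SE 0.23). In each of these genes both day 10 pools were below both day 4 pools, as in 30.4% of all features. With both IUGR replicate 2 pools left out, 7 of the 14 fell, and with single arrays left out 4 to 7, the lowest without IUGR day 10 replicate 1. Np4, RatNP-3b, S100a8 and S100a9 kept their call whichever array was left out. In controls 6 of the 14 genes fell (2.36% of named genes fell there), and S100a8 had 11.13 and 10.83 at day 10 against 12.67 and 12.70 at day 4.

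Among 25 measured genes of monocytes and macrophages (36 listed), 11 fell, 1 rose and 13 were not called, with a median of -0.33. Mmp12, the elastin-degrading metalloproteinase of macrophages, had 8.57 and 8.78 at day 10 against 10.56 and 9.83 at day 4 (-1.52 ± 0.23, adjusted p = 0.00852). Both day 4 IUGR pools were above every other pool of the 4 groups, since the controls held 8.55 and 8.82 at day 10 against 8.93 and 8.69 at day 4. Tyrobp, the signalling adaptor of myeloid receptors, fell by 0.70 (SE 0.10), and the Fc receptors for immunoglobulin G Fcgr2b and Fcgr3a fell by 0.65 (SE 0.16) and 0.60 (SE 0.15). Lst1, a leukocyte membrane protein, fell by 0.53 (SE 0.09). Ccr2, the chemokine receptor that draws monocytes out of the bone marrow, was the gene that rose: 12.65 and 12.70 at day 10 against 11.76 and 12.14 at day 4 (0.73 ± 0.14, adjusted p = 0.0199). Without both IUGR replicate 2 pools, 5 of the 25 fell and 2 rose. With each array left out in turn, the number that fell was 2 to 9, the lowest without IUGR day 10 replicate 1.

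Of 24 measured inflammatory cytokine and adhesion genes (28 listed), 7 fell and 1 rose, with a median of -0.30. Ccl2, the main ligand of CCR2, had 9.65 and 9.47 at day 10 against 10.80 and 10.69 at day 4 (-1.19 ± 0.13, adjusted p = 0.00341), so ligand and receptor moved in opposite directions. The cytokine Il1b had 8.07 and 8.23 at day 10 against 9.09 and 8.88 at day 4 (-0.84 ± 0.11, adjusted p = 0.0064). The chemokines Ccl9, Cxcl1 and Ccl4 fell by 0.75 (SE 0.11), 0.65 (SE 0.13) and 0.52 (SE 0.10). Csf3, the growth factor of neutrophils, rose by 0.54 (SE 0.10), with 8.87 and 9.05 at day 10 against 8.50 and 8.34 at day 4. Its rise ran against the falls of the neutrophil genes in the same pools. With both IUGR replicate 2 pools left out, 7 of the 24 fell and none rose, and the number that fell was 1 to 8 with single arrays left out.

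Complement genes were mixed, with 7 of 22 measured members (29 listed) falling and 2 rising, and a median of -0.27. C3, the central component, had 10.85 and 10.80 at day 10 against 12.59 and 12.31 at day 4, or 3.10-fold lower (-1.63 ± 0.13, adjusted p = 0.00183). Its day 10 pools were nearly equal and both lay more than 1 log2 unit below the day 4 pools. Cd55, which shields host cells from complement, had 11.66 and 11.63 at day 10 against 12.53 and 12.58 at day 4 (-0.91 ± 0.08). C1qb, a chain of the C1q recognition molecule made by macrophages, fell by 0.70 (SE 0.09), Cfb of the alternative pathway by 0.53 (SE 0.08), and the anaphylatoxin receptor C5ar1 by 0.46 (SE 0.11). C1s, the C1 protease, rose by 0.57 (SE 0.15), a call lost with most single arrays left out. The rises of this list were lost with any single IUGR day 10 or control array left out. C3, Cd55, C1qb and Ccl2 kept their call whichever array was left out.

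**Figure D3:**
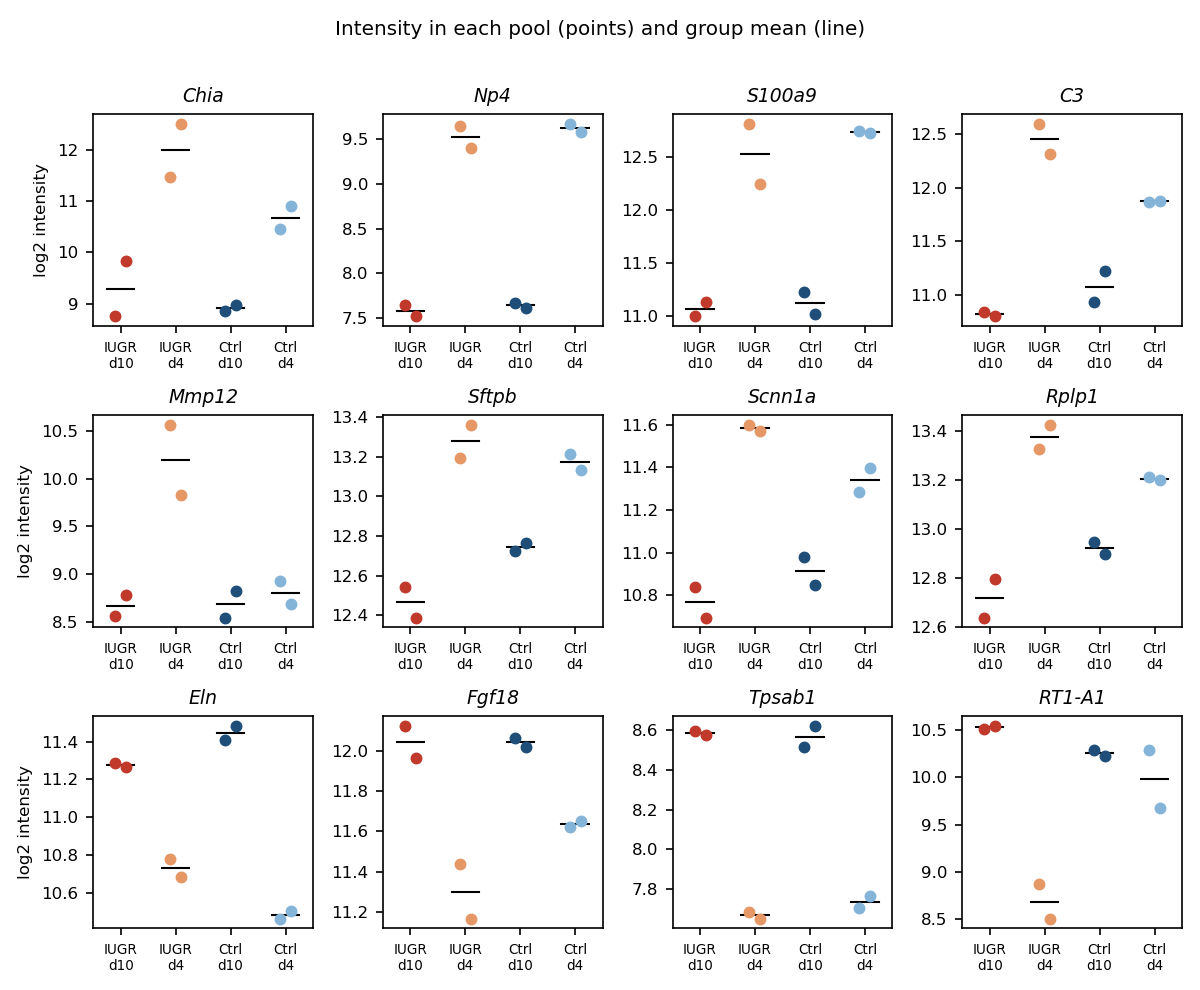
Log2 intensity (vertical axes, each with its own range) of 12 genes in every pool, with points for pools and lines for group means, and the groups IUGR day 10, IUGR day 4, control day 10 and control day 4 from left to right. In each gene the IUGR day 10 pools do not overlap the IUGR day 4 pools. In Mmp12 the controls lie between 8.55 and 8.93 at both ages, and in RT1-A1 the IUGR day 4 pools, 8.87 and 8.50, lie below all others.

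Of 54 measured genes of cytosolic ribosomal proteins, the structural proteins of the ribosome (62 listed), 53 were lower at day 10, 24 fell and 1 rose, with a median of -0.30. In 48 of the 54 both day 10 pools were below both day 4 pools, as in 30.4% of all features. The mean deviation of the 54 genes from their 8-array mean was -0.17 and -0.12 in the IUGR day 10 pools against 0.14 and 0.17 in the IUGR day 4 pools. Without both IUGR replicate 2 pools, 14 fell and none rose. The number that fell was 2 to 22 with single arrays left out, 2 without IUGR day 10 replicate 1 and 10 to 22 otherwise. In controls 2 of the 54 fell and the median was -0.15.

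The transcripts of ribosomal proteins are known to start with an unbroken run of pyrimidines, through which their translation responds to growth signals. The following windows reach from 60 bases before to 20 bases after the transcription start, 5′ to 3′ on the gene's strand, and were taken from RefSeq's rat assembly GRCr8. They are shown because the genes moved together while 1 of them went the other way. Capitals mark the pyrimidine run that covers the start site, a feature looked up after the values were seen.
Rps15 (chr7:10068096-10068175, minus strand): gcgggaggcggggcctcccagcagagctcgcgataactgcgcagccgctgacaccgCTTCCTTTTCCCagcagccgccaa
Rplp1 (chr8:71290853-71290932, minus strand): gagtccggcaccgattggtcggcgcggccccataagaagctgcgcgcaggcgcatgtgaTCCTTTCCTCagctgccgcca
Rps27 (chr2:177964587-177964666, minus strand): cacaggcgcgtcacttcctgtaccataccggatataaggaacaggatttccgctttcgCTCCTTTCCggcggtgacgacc
Rps7 (chr6:50999426-50999505, minus strand): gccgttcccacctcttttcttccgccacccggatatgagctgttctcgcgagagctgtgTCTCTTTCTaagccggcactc

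A run of at least 6 pyrimidines over the annotated start was present in 24 of the 43 ribosomal protein genes with a RefSeq window (55.8%), against 8.11% of 27457 promoters. Among the 20 of them that fell, 12 had it. Rps15 of the small subunit had 12.44 and 12.87 at day 10 against 13.39 and 13.40 at day 4 (-0.74 ± 0.13, adjusted p = 0.0144). Rplp1, a stalk protein of the large subunit, had 12.64 and 12.80 against 13.32 and 13.43 (-0.66 ± 0.09, adjusted p = 0.00631). Rps27 had 12.91 and 12.96 against 13.55 and 13.53 (-0.60 ± 0.08, adjusted p = 0.00561). The greatest fall was that of Rpl13a, at -0.88 ± 0.15, and Rpl8 fell by 0.53 (SE 0.11).

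Rps7 was the 1 gene of the list that rose. It had 12.75 and 12.77 at day 10 against 12.16 and 11.62 at day 4, a rise of 0.87 ± 0.18 (adjusted p = 0.0246). Its window carries the same kind of run, and whether the run bears on these levels was not tested. Rps7 lost its call without both IUGR replicate 2 pools (difference 0.58). Rplp1 and Rps27 kept theirs whichever array was left out.

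Cell cycle genes were lower with few calls: 22 of 24 measured genes of the cell cycle and DNA synthesis (61 listed) were lower at day 10, 3 fell and none rose, and the median was -0.28. The mitotic kinase Pbk fell by 0.60 (SE 0.13), and Ccnb2, the cyclin B2 of mitotic entry, had 9.14 and 9.17 at day 10 against 9.54 and 9.54 at day 4 (-0.38 ± 0.08, adjusted p = 0.0218). Cdk1, the partner kinase of cyclin B, was not called at -0.37 ± 0.11 (adjusted p = 0.0622). With single arrays left out 0 to 7 fell, none without IUGR day 10 replicate 1 and 7 without IUGR day 4 replicate 2. In controls 7 of the 24 fell, with a median of -0.41.

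Genes of the late cell cycle are known to be switched through CCAAT boxes and the cell cycle homology element TTTGAA. The Ccnb2 promoter, from position -120 to position 20 relative to the start, is shown because Ccnb2 fell and its window holds both, marked in capitals.
Ccnb2 (chr8:79981639-79981778, minus strand, RefSeq GRCr8): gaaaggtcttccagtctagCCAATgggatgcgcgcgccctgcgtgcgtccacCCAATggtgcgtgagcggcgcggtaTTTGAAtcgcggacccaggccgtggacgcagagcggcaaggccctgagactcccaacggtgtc
In windows from 250 bases before to 50 after the start, on either strand, CCAAT was present in 12 of the 16 cell cycle genes with a promoter entry (75.0%, against 37.7% of all promoters), and TTTGAA in 8 of the 16, against 18.1% of all promoters. Both motifs describe the windows and are not shown to be bound.

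Of 24 measured genes of cholesterol synthesis and uptake (26 listed), 21 were lower, 4 fell and none rose, with a median of -0.27. Dhcr7, a sterol reductase at the end of the pathway, had 7.58 and 7.56 at day 10 against 8.18 and 8.11 at day 4 (-0.58 ± 0.08, adjusted p = 0.00679). Srebf2, the transcription factor of the pathway, fell by 0.45 (SE 0.11), and Cyp51, the lanosterol demethylase, by 0.40 (SE 0.11). With both IUGR replicate 2 pools left out, 6 of the 24 fell, and with single arrays left out 2 to 9, the highest without IUGR day 4 replicate 2.

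Of 30 measured subunits of the respiratory chain and ATP synthase (42 listed), 27 were lower and 3 fell (7.88% of named genes fell). Averaged over the 30 genes, the log2 level relative to all 8 arrays stood at -0.18 and 0.07 for IUGR day 10 against 0.08 and 0.25 for IUGR day 4, so the IUGR replicate 2 pools were the higher ones at both ages, as they were in heart and brown fat genes. The controls stood at -0.15 and -0.14 for day 10 against 0.05 and 0.03 for day 4. The part of those tissues in this result was not tested. When these 2 pools were dropped, 7 of the 30 fell, and without IUGR day 10 replicate 2 alone 6 did. Atp5mc2, of the ATP synthase rotor ring, had 10.88 and 11.23 at day 10 against 11.85 and 12.06 at day 4 (-0.90 ± 0.13, adjusted p = 0.00783). Atp5f1d of its stalk fell by 0.72 (SE 0.10), and Cox8a of cytochrome oxidase by 0.46 (SE 0.11). Among 27 fatty acid oxidation genes 2 fell: Acot1, an acyl-CoA thioesterase, by 1.40 (SE 0.12), and Cpt1a, the carnitine gate into mitochondria, by 0.38 (SE 0.10). Acot1 had 7.88 and 8.20 at day 10 against 9.53 and 9.35 at day 4.

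Growth regulators of the fetal period were among the falling genes. Dlk1, an imprinted ligand-like membrane protein of immature cells, had 8.26 and 8.18 at day 10 against 9.06 and 9.12 at day 4 (-0.87 ± 0.08, adjusted p = 0.00272). Of 15 measured imprinted growth genes 3 fell, Dlk1 together with Mest (-0.62 ± 0.11) and Nnat (-0.58 ± 0.08). Igf2, the fetal insulin-like growth factor, had 8.60 and 9.76 at day 10 against 9.68 and 10.73 at day 4 and was not called (-1.02 ± 0.41, adjusted p = 0.138). Its day 10 replicate 2 pool was above the day 4 replicate 1 pool, so the ages overlapped. Of 17 genes of insulin-like growth factors, their receptors and binding proteins, the insulin receptor Insr was the 1 that fell (-0.60 ± 0.09), against 4 falls and 1 rise without both IUGR replicate 2 pools, and Igf1 was not called at -0.10 ± 0.09. In the list of fetal-stage regulators 3 of 10 fell and 1 rose: Ptn, the heparin-binding growth factor pleiotrophin (-0.98 ± 0.16), Dlk1 and the chromatin protein Hmga1 (-0.58 ± 0.13) fell, while Afp, the alpha-fetoprotein, rose by 0.61 (SE 0.11).

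The lung's own epithelium was present in all 4 IUGR pools. Sftpc, the surfactant protein specific to type 2 cells, had 15.36 and 15.37 at day 10 against 15.45 and 15.48 at day 4 (-0.10 ± 0.08, not called), and Scgb1a1, the secretoglobin of club cells, had 15.10 and 15.10 against 15.32 and 15.24 (-0.18 ± 0.08, not called). Both lay close to the brightest values of the arrays. Among 17 measured surfactant and type 2 cell genes (25 listed), 6 fell and 2 rose. A fit that dropped both IUGR replicate 2 pools gave 3 falls and 2 rises, and without IUGR day 10 replicate 1 or 2 the falls numbered 2 and 3. Sftpb, the hydrophobic surfactant protein B, had 12.54 and 12.39 at day 10 against 13.19 and 13.36 at day 4 (-0.81 ± 0.10, adjusted p = 0.00427). Napsa, an aspartic protease that processes it, had 11.62 and 11.48 against 12.33 and 12.32 (-0.78 ± 0.08, adjusted p = 0.00333). Both genes separated the ages by more than the spread within either age. Both kept their call whichever array was left out.

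Genes of the same list moved in both directions. Fasn, the fatty acid synthase, fell by 0.62 (SE 0.09), while Scd, a fatty acid desaturase, rose by 0.66 (SE 0.09) with 9.82 and 9.68 at day 10 against 9.17 and 9.01 at day 4. Lamp3, a lamellar body membrane protein, fell by 0.48 (SE 0.09), and the phosphate transporter Slc34a1 rose by 0.55 (SE 0.14). Sftpa1, the surfactant protein A of host defence, was not called at -0.27 ± 0.09. The median of the 17 genes was -0.10.

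Type 1 cell genes had 4 falls among 16 measured. No member fell without IUGR day 10 replicate 1 or without IUGR day 10 replicate 2, and Cldn18, Gprc5a and Cav2 each kept their call in 1 of 8 fits with an array left out. Hopx, a homeodomain protein of these cells, had 11.56 and 11.65 at day 10 against 12.00 and 12.26 at day 4 (-0.52 ± 0.10, adjusted p = 0.0193). The tight junction protein Cldn18 fell by 0.43 (SE 0.10), the receptor Gprc5a by 0.39 (SE 0.10) and the caveolar protein Cav2 by 0.38 (SE 0.10). Ager, the receptor for advanced glycation end products on their surface, was not called, with 12.12 and 12.09 at day 10 against 12.45 and 12.23 at day 4. In controls none of the 16 was called, and Ager had 12.51 and 12.50 at day 10 against 12.25 and 12.24 at day 4. Aqp5, the water channel, was 0.00 ± 0.08, and Vegfa, the capillary growth factor from these cells, was -0.10 ± 0.10.

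Ion transport genes, which set the salt and water content of the airspace fluid, gave 9 falls and no rise among 31 measured. Scnn1a, the alpha subunit of the epithelial sodium channel, had 10.84 and 10.70 at day 10 against 11.60 and 11.57 at day 4 (-0.82 ± 0.09, adjusted p = 0.0039). Atp1b1, the beta subunit of the sodium pump, had 12.52 and 12.53 against 13.08 and 13.11 (-0.57 ± 0.08, adjusted p = 0.00642). The chloride channel Cftr fell by 0.57 (SE 0.12), and the potassium channels Kcnj15 and Kcnj2 by 0.67 (SE 0.14) and 0.65 (SE 0.14). Aqp4, a water channel, fell by 0.48 (SE 0.10). Subunits of the absorptive route (Scnn1a, Atp1b1) and the secretory channel Cftr thus all fell. Without both IUGR replicate 2 pools, 7 of the 31 fell, and with single arrays left out 2 to 11.

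In the conducting airway list 5 of 21 genes fell and none rose, and 17 were lower. Bpifb1, a secreted defence protein of the airway, had 8.34 and 9.39 at day 10 against 9.89 and 10.31 at day 4 (-1.23 ± 0.32, adjusted p = 0.0423). Cyp2f4, a club cell cytochrome P450, had 10.00 and 10.78 against 11.18 and 11.78 (-1.09 ± 0.28, adjusted p = 0.0419). The cilia protein Tekt2 fell by 0.69 (SE 0.15), the secretoglobin Scgb3a2 by 0.44 (SE 0.11) and Calca, the calcitonin gene peptide of neuroendocrine cells, by 0.44 (SE 0.10). With single arrays left out 0 to 3 of the list fell, none without IUGR day 10 replicate 1, and Bpifb1 and Cyp2f4 each kept their call in 2 of 8 such fits.

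Of 31 antioxidant genes (34 listed) 26 were lower, 6 fell and none rose. Without IUGR day 10 replicate 1 none fell, while 4 or 5 did with any other single array left out. The glutathione peroxidases Gpx1 and Gpx4 fell by 0.65 (SE 0.10) and 0.56 (SE 0.09), the quinone reductase Nqo1 by 0.52 (SE 0.10), the mitochondrial superoxide dismutase Sod2 by 0.49 (SE 0.11), and the peroxiredoxins Prdx4 and Prdx6 by 0.46 (SE 0.09) and 0.35 (SE 0.08). Gpx1 had 12.31 and 12.55 at day 10 against 13.08 and 13.08 at day 4. In the cytochrome P450 and xenobiotic list 4 of 27 fell and 1 rose. The reductase Por fell by 0.31 (SE 0.08) and the sulfotransferase Sult1a1 by 0.58 (SE 0.08), beside Cyp2f4 and Cyp51. Cyp2e1 rose by 0.71 (SE 0.10). Por lost its call with any single array left out, and Cyp51 with most of them. Fkbp5, a chaperone induced by glucocorticoids, had 8.93 and 8.80 at day 10 against 9.59 and 9.92 at day 4 (-0.89 ± 0.13, adjusted p = 0.00797). It was 1 of 3 falls among 18 glucocorticoid receptor and response genes, with Lcn2 and Angptl4, a secreted lipase inhibitor (-0.50 ± 0.13).

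Of 10 measured genes of elastic fibre assembly (21 listed), 3 rose and none fell, 9 were higher at day 10, and the median was 0.15. Eln, the elastin that gives septa their recoil, had 11.29 and 11.27 at day 10 against 10.78 and 10.68 at day 4, a rise of 0.54 ± 0.08 (adjusted p = 0.00849). Fbn1, the fibrillin scaffold of the fibre, rose by 0.35 (SE 0.09), and Ltbp2, a fibrillin-binding protein, by 0.32 (SE 0.08). With both IUGR replicate 2 pools left out, 1 of the 10 rose. With single arrays left out 0 to 2 did, and none without IUGR day 10 replicate 1. In controls 3 of the 10 rose too (1.23% of named genes rose there), and Eln had 11.41 and 11.48 at day 10 against 10.46 and 10.50 at day 4.

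None of 15 genes of interstitial collagens and proteoglycans was called, at a median of 0.16. The fibrillar collagen Col3a1 had 14.25 and 14.55 at day 10 against 13.78 and 14.06 at day 4 (0.48 ± 0.13, adjusted p = 0.0545), with no overlap between the ages. The proteoglycan Lum was 0.62 ± 0.21 (adjusted p = 0.0923) and the collagen hydroxylase Plod1 0.24 ± 0.10. Lamb2, a laminin chain, fell by 0.31 (SE 0.08), the 1 call among 4 measured basement membrane genes. This call was lost with any single array left out.

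Several signals of the septal mesenchyme rose. Fgf18, a fibroblast growth factor of the alveolar mesenchyme, had 12.12 and 11.96 at day 10 against 11.44 and 11.17 at day 4 (0.74 ± 0.11, adjusted p = 0.00827). The ligands Tgfb2 and Tgfb3 rose by 0.54 (SE 0.09) and 0.52 (SE 0.08), with Tgfb2 at 12.67 and 12.77 against 12.22 and 12.13. In the list of TGF-beta and BMP signalling 3 of 33 rose and 3 fell, against 3.49% and 7.88% of named genes. The calls of this list were lost without IUGR day 10 replicate 1. The receptor Acvr2b rose by 0.41 (SE 0.10), whereas the ligand Bmp4 fell by 0.54 (SE 0.11) together with Id1 (-0.45 ± 0.08) and Id2 (-0.33 ± 0.08), which are known targets of BMP signals. Bmp4, Id1 and Id2 thus fell where Tgfb2 and Tgfb3 rose. Acvr2b and Id2 lost their call with most single arrays left out.

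Of 15 genes of myofibroblasts, smooth muscle and PDGF signals 2 rose, Fgf18 and Pdgfrb, the PDGF receptor of pericytes and fibroblasts (0.48 ± 0.10). In the FGF list 2 of 24 rose, Fgf18 and Fgf14 (0.47 ± 0.11), and Spry2, a feedback inhibitor of FGF receptors, fell by 0.54 (SE 0.09). Among 19 Wnt genes Wnt5a rose by 0.52 (SE 0.10), while Wnt4 fell by 0.51 (SE 0.08) and the receptor Fzd2 by 0.60 (SE 0.09). Of 14 lipofibroblast genes 3 fell, among them Pthlh, the epithelial signal to these cells (-0.43 ± 0.11), with Dlk1 and Angptl4. In the retinoid list 2 of 20 fell: Rdh10, which makes retinal (-0.44 ± 0.11), and Cyp26a1, which degrades retinoic acid (-0.46 ± 0.11). The calls of the myofibroblast, FGF, Wnt and retinoid lists were lost without IUGR day 10 replicate 1.

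Matrix proteases split in the same way, with 2 rises and 1 fall among 18. Adamts5, an aggrecan- and versican-cleaving protease, had 11.56 and 11.60 at day 10 against 10.74 and 10.79 at day 4 (0.81 ± 0.08, adjusted p = 0.00275). Adamts1 of the same family rose by 0.34 (SE 0.08), and Mmp12 was the fall. Adamts5 kept its call whichever array was left out.

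Endothelial genes gave 5 rises and 2 falls among 21 measured (34 listed), at a median of -0.05. Emcn, a sialomucin of capillary and venous endothelium, had 13.78 and 13.79 at day 10 against 13.29 and 13.13 at day 4 (0.58 ± 0.10, adjusted p = 0.0127). Angpt1, the vessel-stabilising ligand of the Tie2 receptor, rose by 0.49 (SE 0.09), the apelin receptor Aplnr by 0.44 (SE 0.10) and the connexin Gja4 by 0.39 (SE 0.09). Gja5, the connexin of arterial endothelium, fell by 0.80 (SE 0.16), with 9.13 and 9.44 at day 10 against 9.90 and 10.26 at day 4, and Sox18 fell by 0.45 (SE 0.12). Pecam1, found on all endothelium, was not called, with 12.30 and 12.10 against 12.33 and 12.25. Without both IUGR replicate 2 pools, 2 of the 21 rose and 2 fell, and none was called without IUGR day 10 replicate 1.

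The greatest rises among named genes held several members of the rat major histocompatibility complex, RT1. RT1-A1, a class I molecule that presents peptides to T cells, had 10.52 and 10.54 at day 10 against 8.87 and 8.50 at day 4, which is 3.60-fold (1.85 ± 0.19, adjusted p = 0.00336). The controls held 10.29 and 10.23 at day 10 against 10.29 and 9.68 at day 4. RT1-CE7 had 11.07 and 11.21 against 9.96 and 9.39 (1.46 ± 0.16, adjusted p = 0.00384), and RT1-CE3 rose by 1.25 (SE 0.19). Of 16 measured genes of class I presentation 3 rose (RT1-A1, RT1-CE1 by 0.77 and RT1-M3-1 by 0.49) and 1 fell, the immunoproteasome subunit Psmb10 (-0.38 ± 0.09). A fit that dropped both IUGR replicate 2 pools gave 1 rise and 1 fall. These class I genes are near-identical and vary between strains and individuals, so single members are uncertain.

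Of 13 measured class II genes 10 were lower at day 10, beside 5944 of 9621 named genes. Of the 13, 3 fell and 1 rose. When both IUGR replicate 2 pools were dropped 2 rose and none fell, and none fell without IUGR day 10 replicate 1 or without IUGR day 10 replicate 2. Cd74, the invariant chain, fell by 0.40 (SE 0.09), the protease Ctss that degrades it by 0.44 (SE 0.10), and the peptide exchange factor subunit RT1-DMb by 0.46 (SE 0.09). Ciita, the master regulator of class II genes, rose by 0.62 (SE 0.14). Among 33 interferon-induced genes 3 fell and 1 rose, against 7.88% and 3.49% of named genes, at a median of -0.13. Ifit1, which binds viral RNA, had 10.22 and 9.91 at day 10 against 11.17 and 10.83 at day 4 (-0.93 ± 0.15, adjusted p = 0.0113). The GTPase Ifi47 fell by 0.45 (SE 0.11), the chemokine Cxcl10 by 0.51 (SE 0.12), and the nuclear body protein Sp100 rose by 0.39 (SE 0.11).

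The Cxcl10 promoter is shown because it was 1 of the falling interferon genes and carries the interferon response element, written here as 2 blocks of GAAA with 2 bases between them and searched on both strands. Capitals mark the element in the window from 250 bases before to 20 after the start.
Cxcl10 (chr14:15988816-15989085, plus strand, RefSeq GRCr8): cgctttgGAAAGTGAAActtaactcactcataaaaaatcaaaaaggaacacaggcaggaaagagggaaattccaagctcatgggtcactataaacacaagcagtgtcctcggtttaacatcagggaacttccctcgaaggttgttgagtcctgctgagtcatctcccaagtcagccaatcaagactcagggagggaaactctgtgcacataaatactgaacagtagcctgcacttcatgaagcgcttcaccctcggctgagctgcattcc
The element was present in 17 of the 27 interferon genes with a promoter entry (63.0%), against 3.77% of all promoters. Of the 2 falling members with an entry, 1 held it. Cxcl10 had 7.83 and 7.89 at day 10 against 8.22 and 8.51 at day 4, near the dim end of the arrays. Its call was lost with most single arrays left out and without both IUGR replicate 2 pools (difference -0.40).

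Of 13 measured mast cell and basophil genes 2 rose and 1 fell. Tpsab1, the mast cell tryptase, had 8.59 and 8.58 at day 10 against 7.68 and 7.65 at day 4 (0.92 ± 0.08, adjusted p = 0.00239), with hardly any spread within either age. Mcpt4, a chymase, rose by 0.60 (SE 0.16), and Hdc, the enzyme that makes histamine, fell by 0.70 (SE 0.09). Mcpt4 kept its call in 1 of the 8 fits with an array left out. Of 27 T and natural killer cell genes 1 fell, the T cell receptor chain Cd3d (-0.67 ± 0.13), and of 7 B and plasma cell genes none was called, with the smallest p for Ebf1 at 0.33 ± 0.10. Of 6 thymocyte genes the chemokine receptor Ccr9 rose by 0.38 (SE 0.10).

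The other named genes among the greatest rises had no common list. Ly6i, of the Ly6 family of surface proteins, had 10.10 and 10.00 at day 10 against 8.15 and 7.74 at day 4, the greatest rise of a named gene (2.11 ± 0.42, adjusted p = 0.0192). Alb, the serum albumin, had 8.64 and 8.67 against 7.56 and 7.58 (1.09 ± 0.07, adjusted p = 0.00157). Nox4, an NADPH oxidase that makes hydrogen peroxide, had 11.57 and 11.22 against 10.38 and 10.22 (1.09 ± 0.13, adjusted p = 0.00461). Vtn, the adhesion protein vitronectin, rose by 1.10 (SE 0.13), Clic2, of the chloride intracellular channel family, by 1.10 (SE 0.24), and the open reading frame C5h1orf174 by 1.10 (SE 0.11). The cation channel Trpc4 rose by 1.08 (SE 0.19), the lectin Clec2d by 1.07 (SE 0.20), the secreted peptide Ostn by 1.06 (SE 0.26), the acetyltransferase Naa11 by 1.06 (SE 0.11), and the olfactory receptor genes Or14j10b and Or14j15 by 1.13 (SE 0.28) and 1.06 (SE 0.22). Alb, Nox4, Vtn, C5h1orf174, Naa11, RT1-A1 and RT1-CE7 kept their call whichever array was left out, whereas Ly6i kept it in 5 of 8 such fits and Ostn in 2.

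Genes of red cell precursors fell in part: 6 of 20 measured fell and 1 rose, at a median of -0.27. Hbe1, an embryonic globin, had 7.89 and 7.51 at day 10 against 9.19 and 8.69 at day 4 (-1.24 ± 0.18, adjusted p = 0.00813). Rhag, an ammonia channel of the red cell membrane, fell by 0.94 (SE 0.22), the membrane protein Gypc by 0.68 (SE 0.13), and the globin Hbg1 by 0.50 (SE 0.08). Hbe2, another gene of the globin family, rose by 0.64 (SE 0.13). The list moved unequally in both pairs of pools, with medians of -0.45 between the replicate 1 pools and -0.04 between the replicate 2 pools.

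Heart and fat genes differed more between pools than between ages. Of 24 heart muscle genes 22 were lower at day 10, but 1 fell, Corin, the protease that activates atrial natriuretic peptide (-0.75 ± 0.09), and the median was -0.56. Myh6, the alpha heavy chain of heart myosin, had 10.35 and 12.25 at day 10 against 11.13 and 13.27 at day 4 (-0.90 ± 0.76, not called). Nppa, the atrial natriuretic peptide, was -0.21 ± 1.42. In both genes the replicate 2 pools were the high ones at either age, and the ages overlapped. When both replicate 2 pools were left out 8 of the 24 heart genes fell. In the controls the median of the heart list was -0.59, so it was lower at day 10 there as well.

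Of 21 brown fat and adipocyte genes none was called, whereas without both IUGR replicate 2 pools 3 rose and 1 fell. Ucp1, the uncoupling protein that makes heat, had 11.30 and 13.29 at day 10 against 7.91 and 12.02 at day 4 (2.33 ± 1.23, adjusted p = 0.251), and Adipoq, the fat cell hormone adiponectin, had 9.36 and 11.44 at day 10 against 7.39 and 11.59 at day 4. Both overlapped between the ages. Between the replicate 1 pools alone Ucp1 differed by 3.39 (adjusted p = 0.0327) and Adipoq by 1.97 (adjusted p = 0.0204), with the spread taken from the controls. The smallest p among the 21 genes belonged to Slc27a2, a fatty acid transporter (-0.44 ± 0.14), Acvr1c, an activin receptor (-0.40 ± 0.17), and the coactivator Ppargc1a (-0.23 ± 0.11). Of 16 skeletal muscle genes 1 fell, the embryonic myosin Myh3 (-1.28 ± 0.28). After both IUGR replicate 2 pools were dropped 3 fell and 1 rose, and without IUGR day 4 replicate 1 alone 11 fell. Its list had medians of -0.02 between the replicate 1 pools and -0.68 between the replicate 2 pools, and the summed intensity of the list was 11540 in IUGR day 4 replicate 2 and 4743.5 to 6070.3 in the other 7 pools.

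For the lists with few calls, the fit that dropped both IUGR replicate 2 pools moved the counts as follows. It gave 2 rises and 2 falls in the cytochrome P450, nerve and liver lists, and 1 rise and 1 fall in the lipofibroblast, FGF and circadian lists. It found 1 rise and 2 falls in the matrix protease, glucocorticoid, immediate early and fatty acid oxidation lists, and 1 rise and 6 falls among complement genes. The interferon and T cell lists had 2 falls and no rise, the retinoid list 3, the imprinted and fetal-stage lists 4 each and the red cell list 7. Thymocyte genes had 2 rises, interstitial collagens 1, and the myofibroblast list 2 beside 1 fall.

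**Figure D4:**
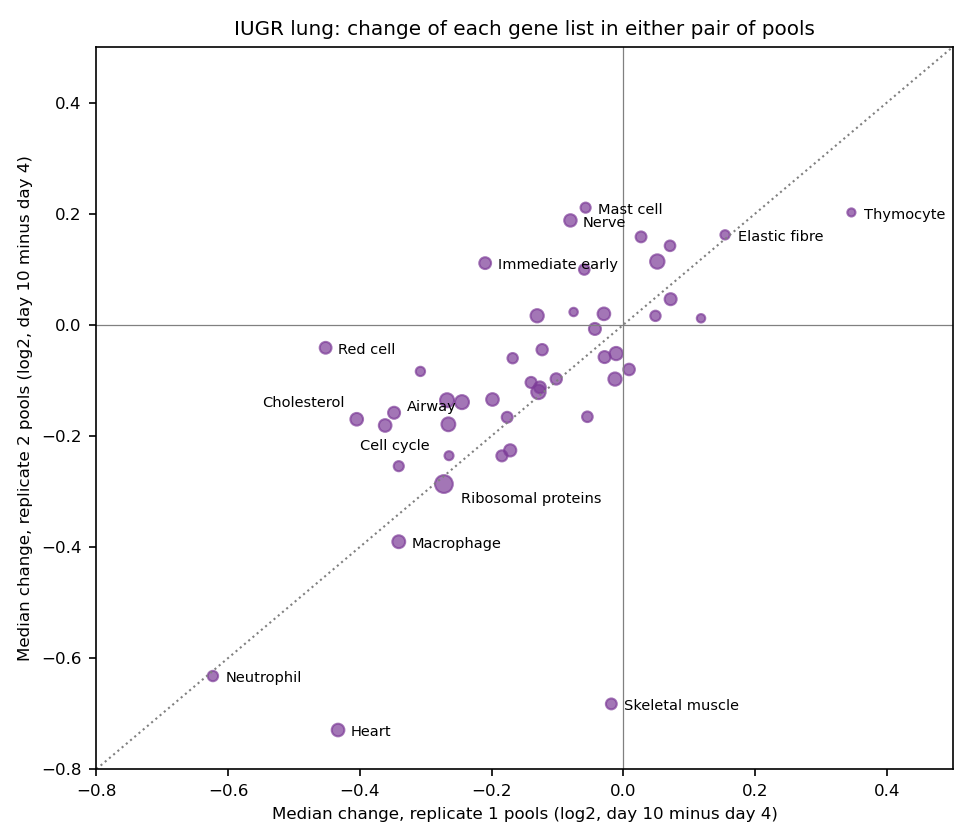
Median difference of each gene list (day 10 minus day 4, log2 units) between the replicate 1 pools of IUGR lungs on the horizontal axis and between the replicate 2 pools on the vertical axis, with point size growing with the number of measured members and a dotted line of equality. Neutrophil, macrophage, ribosomal protein and elastic fibre genes lie near the line. Skeletal muscle (-0.02 and -0.68) and red cell genes (-0.45 and -0.04) lie far from it.

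The remaining marker lists held few called members. Of 23 nerve and Schwann cell genes the tubulin Tubb3 rose by 0.88 (SE 0.15) and the adhesion molecule Ncam1 fell by 0.72 (SE 0.18). Ncam1 lost its call with most single arrays left out. The mean deviation of the 23 genes from their 8-array mean was -0.15 and 0.55 at IUGR day 10 against -0.14 and 0.30 at IUGR day 4. In controls it was -0.25 and -0.19 at day 10 against 0.04 and -0.16 at day 4. The IUGR replicate 2 pools were thus the highest, as in brown fat genes. Of 7 airway cartilage genes Chad and Hapln1, both cartilage matrix proteins, rose by 0.56 (SE 0.11) and 0.54 (SE 0.14). Among 21 liver genes Alb, Cyp2e1 and Afp rose, and Hp, the haptoglobin, fell by 0.84 (SE 0.11). Of 9 pleural mesothelium genes Krt18 and Krt19, keratins that lung epithelium shares, fell by 0.44 (SE 0.11) and 0.49 (SE 0.10), and all 9 were lower at a median of -0.23. In the circadian list 1 of 14 fell, the repressor Bhlhe41 (-0.80 ± 0.11), while the clock output gene Dbp was 0.17 ± 0.10. None of 20 immediate early and heat shock genes was called: Fos was 0.00 ± 0.11 and the heat shock gene Hsph1 had the smallest p of the list (0.38 ± 0.11, adjusted p = 0.0514), ahead of Jun (-0.47 ± 0.13) and Hspb1 (-0.43 ± 0.12).

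The change in IUGR lungs was then set against the change in control lungs over the same days. The differences share no array, but both tests use the same estimate of spread for a feature. Calls in both groups are therefore not independent. In controls 1123 features were called (4.28%), 601 higher (2.29%) and 522 lower (1.99%) at day 10. Of the 3405 features called in IUGR lungs, 3211 had the same sign in controls and 794 were also called there in the same direction. The calls of both groups together made up 23.4% of the IUGR calls and 71.0% of the control calls. Across all 26208 features both changes correlated at r = 0.70, as a description across features that are not independent. Opposite calls were found in 3 features. They were Pde6h, the inhibitory subunit of a cone photoreceptor phosphodiesterase (0.57 ± 0.10 in IUGR lungs, -0.50 ± 0.10 in controls), and 2 features without a symbol.

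Whether the changes differed was tested directly, as the IUGR change minus the control change. No feature passed (0 of 26208 by limma, smallest adjusted p = 0.296), while 1933 (7.38%) had an unadjusted p under 0.05. The different number of calls in both groups is therefore not a tested difference of any feature. The median SE of this difference was 0.15, against 0.11 for either change alone. In simulated data with few changed features, this test recovered 0 of 100 features that differed by 0.5. It recovered 56 of 100 that differed by 1. A feature that did not pass is therefore not shown to have changed alike in both groups.

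**Figure D5:**
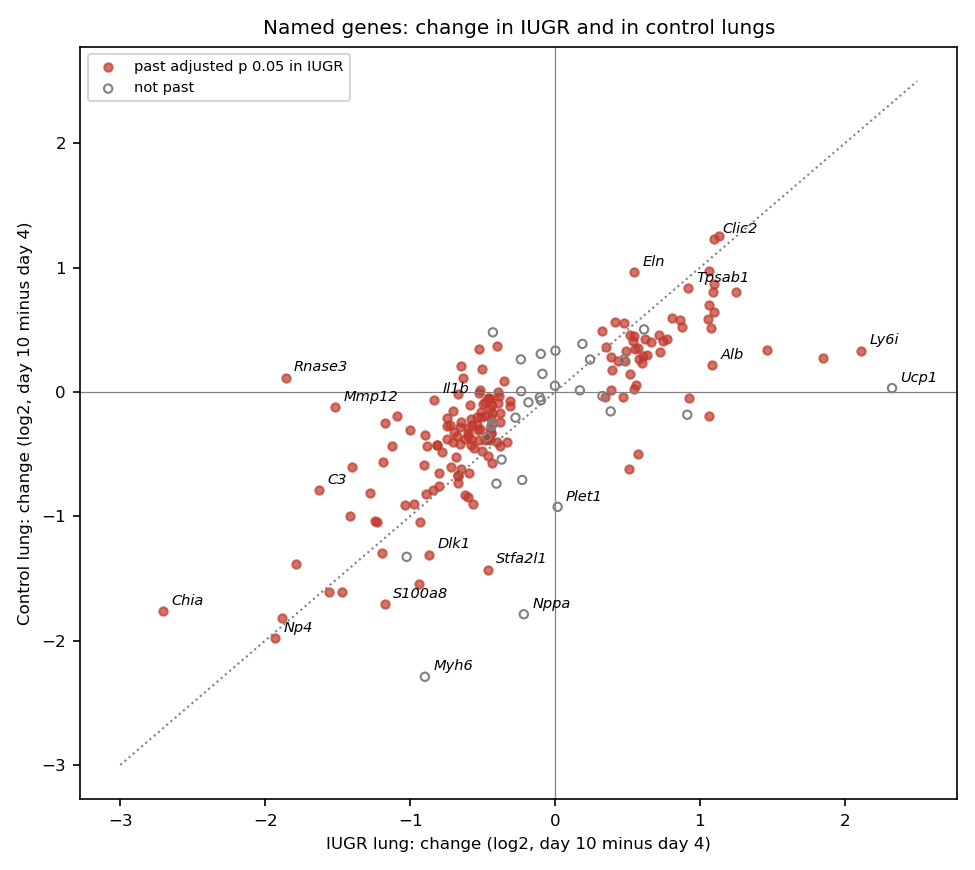
Change of 199 named genes in control lungs (vertical axis) against the change in IUGR lungs (horizontal axis), both as day 10 minus day 4 in log2 units, with filled points for genes past an adjusted p of 0.05 in IUGR lungs and a dotted line of equality. Np4 lies on the line at -1.93 in IUGR and -1.98 in control lungs. Rnase3, at -1.86 and 0.12, and Mmp12, at -1.52 and -0.12, lie away from it, and none of the differences passed over all features.

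The genes with the smallest p in that test had differences of 0.69 to 1.13 in size, with adjusted p of 0.296 to 0.361. Alb rose by 1.09 in IUGR lungs and was 0.22 ± 0.07 in controls, where it had 8.17 and 8.14 at day 10 against 7.93 and 7.95 at day 4. The difference was 0.87 ± 0.11, the day 10 IUGR pools being the highest and the day 4 IUGR pools the lowest of the 8. Tnfsf10, the death ligand TRAIL, had 11.50 and 11.37 in IUGR lungs at day 10 against 10.63 and 10.38 at day 4, whereas the 4 control pools lay between 11.28 and 11.41 (difference 0.97 ± 0.15). In both genes the IUGR day 4 pools were below all control pools. Nlgn1, a synaptic adhesion molecule, had a difference of 1.13, and Pde6h one of 1.07. Plet1, an epithelial surface protein, was 0.02 ± 0.10 in IUGR lungs and -0.92 ± 0.10 in controls, and Stfa2l1 of the stefin family was -0.46 ± 0.11 and -1.43 ± 0.11.

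Among the lower ones, Saa4, a constitutive serum amyloid A, was -1.12 ± 0.08 in IUGR lungs and -0.44 ± 0.08 in controls. Lst1 was -0.53 ± 0.09 in IUGR and 0.34 ± 0.09 in control lungs, and RT1-Bb, a class II chain, -0.43 ± 0.12 and 0.48 ± 0.12. Unc119, a lipid-binding trafficking protein, and Flii, an actin-binding protein, had differences of -0.75 and -0.77. For Unc119 and Lst1 both IUGR day 4 pools were above the other 6 pools.

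Over the lists, the medians of the difference between changes were -0.23 for macrophage genes, -0.21 for inflammatory genes, -0.12 for ribosomal proteins, -0.05 for neutrophil genes and -0.29 for type 1 cell genes, against -0.02 over all named genes. No member of the 47 lists passed the test of the difference. Eln had a rise of 0.54 in IUGR lungs and of 0.96 in controls, with a difference of -0.42 ± 0.11 (adjusted p = 0.504), the 4 day 10 pools holding 11.29 and 11.27 in IUGR against 11.41 and 11.48 in control lungs. Il1b had a difference of -0.77 ± 0.16 (adjusted p = 0.361) and Mmp12 of -1.40 ± 0.32 (adjusted p = 0.404). In both of them the IUGR day 4 pools were above the other 6 pools. RT1-A1 had a difference of 1.57 ± 0.28 (adjusted p = 0.361), its IUGR day 4 pools being the lowest of the 8. Differences of 0.08 for Tpsab1, 0.34 for Fgf18 and 0.14 for S100a9 had adjusted p of 0.684 or more.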

How the data were processed

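Whole-lung RNA of Sprague-Dawley pups was measured on one-colour NimbleGen arrays labelled with Cy3. The deposited values are linear intensities, 1 per feature, and the submitters' processing notes name RMA, with no version. How probes were designed, how background was treated and when arrays were scanned are not given in the sources used here. The 8 arrays of days 4 and 10 were used as log2 intensity without further normalisation; the 4 arrays of day 21 were not used, since across features they correlated with the mean of these 8 at 0.0197 to 0.434 and 3 of them had lowest values of 5.65 to 6.02, against 113 to 122. Features were named by RefSeq accession without version (GRCr8): 9731 of 26208 matched 1 symbol, giving 9621 genes (92 on several features), whereas 16477 had no match. In lists the feature with the highest mean stands for a gene.

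The 4 groups of 2 pools shared 1 linear model with moderated variance (limma 3.58.1 under R 4.3.3; 4 residual and 3.79 prior degrees of freedom). The Benjamini-Hochberg adjustment ran over all 26208 features, and the threshold was 0.05. The fit was tested on simulated data. For day 10 minus day 4 in IUGR lungs it recovered 92 of 200 features changed by 0.5 and 192 of 200 changed by 1. Contrasts were day 10 minus day 4 in IUGR lungs, the same in controls, and the first minus the second. The number of arrays limits the precision. The rule for named genes took the 15 largest rises and 15 largest falls with the same sign in both replicate-numbered pairs. It added 6 genes each way with the smallest p for the difference between changes, up to 6 called members of each of 47 lists (else up to 3 with the smallest p), and a panel of 20 lung, heart and fat genes, 18 of them measured, which gave 199 genes. Some of these 199 are left out of the text. The members and lists were chosen with earlier results of these data known. Alternatives were median centring, quantile normalisation, a filter that dropped the dimmest 30%, an intensity trend, features with NM accessions only, each array left out, a replicate block, both IUGR replicate 2 pools left out, the heart and brown fat level as a covariate, and separate fits of the 4 IUGR or 4 control arrays.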

Additional observations from a re-analysis of the deposited data

How the results depend on the processing

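Every feature called in IUGR lungs kept its sign under each alternative that tested it, whereas features not called and medians of lists could change sign. The sign was free to change only under median centring, quantile normalisation, the covariate, or with IUGR arrays left out. In the other alternatives the IUGR difference of a feature is the same by construction, so its kept sign says nothing there. Counts of higher and lower features in IUGR lungs moved by more than 1.5 times where only the 10097 features with NM accessions were tested (362 higher, 790 lower, by construction fewer features) and where the 4 IUGR arrays were fitted alone (260 higher, 66 lower, with fewer samples behind the spread). With single arrays left out they were 354 to 2232 higher and 150 to 2027 lower. The lowest counts came without IUGR day 10 replicate 1, and the total fell to 1772 without IUGR day 10 replicate 2 and to 1744 without either control day 10 array; the cause was not tested. In controls 1123 features were called, against 359 with NM features only and 2997 both without the IUGR replicate 2 pools and from the 4 control arrays alone, which take the spread from controls, and 7 to 2264 with single arrays left out (7 without control day 4 replicate 1, 14 and 30 without control day 10 replicates 2 and 1, 146 without control day 4 replicate 2, 2264 without either IUGR day 4 array). The difference between changes gave 11 features without both IUGR replicate 2 pools and 0 to 152 with single arrays left out (152 and 36 when IUGR day 4 replicate 1 or 2 was dropped, 1 when control day 4 replicate 1 was). With the replicate number as a block, 1605 features were higher and 1155 lower in IUGR lungs, 823 were called in controls and 0 for the difference. Same-numbered pools deviated together at r = 0.19 in IUGR and 0.04 in control lungs, and the labels do not say what a number shares. Of the 199 named genes, 169 were called, 121 of these lost the call without IUGR day 10 replicate 1 and 43 kept it whichever array was left out. Leaving out both IUGR replicate 2 pools ended 51 of the 169 calls, and the median of 6 of the 47 lists changed sign there, against 0 under quantile normalisation, median centring or the covariate.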

Other observations

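The rises in IUGR lungs lay largely outside the named genes. Of the features with XM accessions, 1432 rose and 831 fell, against 359 that rose and 783 that fell among those with NM accessions. With features split into 5 equal classes by mean level over the 8 arrays, the dimmest class held 49 rises and 32 falls, the class above it 354 and 149, the middle class 612 and 487, the class above that 428 and 565, and the brightest class 348 and 381. Rises outnumbered falls in the 3 dimmer classes, and falls outnumbered rises in the 2 brighter ones. The greatest rise of any feature was 2.44, in one without a symbol.

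Olfactory receptor genes, a family of odorant receptors of the nose, were looked at after their values were seen, because Or14j10b and Or14j15 stood among the greatest rises. Of 1183 features with an olfactory receptor symbol 55 rose (4.65%, against 6.83% of all features) and 1 fell. Their median difference was 0.01 and their median level 7.27, against 8.68 over all features. In controls 15 rose and none fell. The family's share of rises was thus below that of all features, but above the 3.49% of named genes counted with 1 feature each. Its median level lay in the dimmest of the 5 classes, where 49 of 5242 features rose. The members that rose had a median level of 7.95, in the class above, where 354 of 5241 rose. The family's calls ran almost wholly one way.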
